A study of Homo sapiens with 2 samples.

Results

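Expression of 10 subunits of the Integrator complex was examined, out of 22411 genes with an array row of their own: INTS2, INTS3, INTS4, INTS6, INTS7, INTS8, INTS9, INTS10, INTS12 and INTS13. Members were chosen by name, and each was read from a row to which the platform annotation gave that name, current or older, as the only symbol. Each of the 10 members had exactly 1 such row. RNA came from KYSE150 cells, an established line of esophageal squamous cell carcinoma, that stably carried a lentiviral short hairpin RNA either against the long non-coding RNA lncRNA625 (the knockdown) or of scrambled sequence (shscramble, the control). Both lines had been infected with virus, selection with puromycin is described for the knockdown line, and the knockdown line came from a screen of cell clones. Each group held 1 Affymetrix Human Transcriptome Array 2.0, so the values have no replicate error, no test was possible, and precision is limited by the number of arrays. The comparison asks how these genes differ when lncRNA625 is reduced.

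Integrator is a nuclear complex bound to RNA polymerase II. It carries an RNA endonuclease that cuts the 3' ends of small nuclear RNAs (snRNAs) and of other nascent transcripts, and it recruits the phosphatase PP2A to the polymerase at promoters. Its subunits are grouped into a backbone, a cleavage module, a phosphatase module and an arm that holds INTS10, INTS13 and INTS14. INTS13 was formerly called ASUN, the name used in the study, and is also known for its part in bringing dynein to the nuclear envelope at the start of mitosis.

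The 2 arrays had medians of 4.34 and 4.35 over all 70523 rows on the deposited log2 scale. The 23 rows of background probes had a median of 3.34 and reached 6.003 on both arrays. Of all genes with a row of their own, 11312 were past the signal limit, the median of single-gene rows (4.97), and these serve as the background for every count below. No row was tied to lncRNA625, so its signal was not analysed here, and the arrays gave no check of the label. Of the squamous epithelial markers, KRT5, CDH1, DSP, SFN and SOX2 were past the background probes on both arrays, while KRT14 lay at 5.63 on both and KRT6A and TP63 had no row of their own. Markers of fibroblasts, leukocytes, endothelium and columnar epithelium lay between 3.50 and 4.68 on both arrays, below the signal limit in 15 of 15 cases with a row.

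Among the members, INTS13 was lower on the knockdown array and the other 9 had the same value on both arrays. INTS13 stood at 11.73 in control cells and 11.02 in knockdown cells, both far above the background probes. The log2 difference, knockdown minus control, was -0.71, which leaves 61.2% of the control signal and is a 1.63-fold lower value on the deposited scale. It was thus 1 member of 10 that was lower by more than 1.5-fold, against 0.477% of all genes past the signal limit. No member was higher by that factor, against 1.11% of all genes. At a limit of 2-fold, 0 members were lower, where the share of all genes can be at most the 0.477% past 1.5-fold. By size, 30 of the 54 genes that were lower by more than 1.5-fold had a lower difference than INTS13. The study picked INTS13 from these same arrays as a target of lncRNA625, so the difference is not independent evidence for it. The study also reports quantitative PCR of INTS13, as ASUN, after silencing of lncRNA625 or of EP300, and those data were not examined here.

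**Figure D1:**
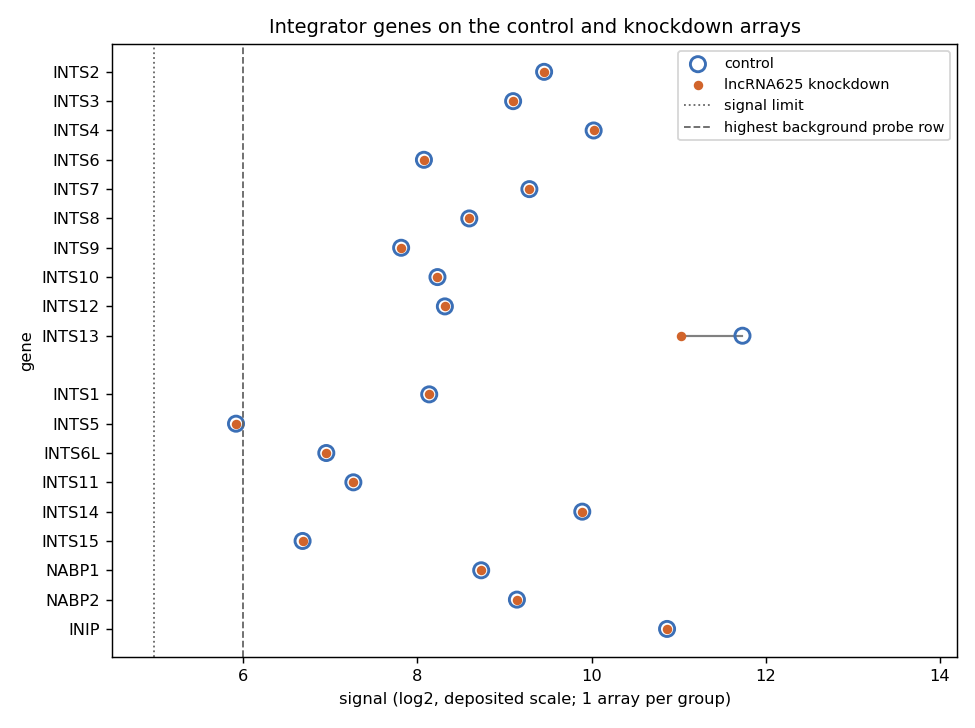
Signal of the 10 members (upper block) and 9 other Integrator genes (lower block) on the control array (open circles) and the knockdown array (filled points), on the deposited log2 scale, with 1 array per group. INTS13 is the gene whose points lie apart, at 11.73 and 11.02, while in the other 18 genes the points coincide. Levels of different genes come from different probes and cannot be set against each other.

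An equal value was common on these arrays. Among the 11312 genes past the limit, 76.1% were equal to 5 decimals, 12.1% were lower and 11.8% were higher. In the signal range of the 9 equal members, 7.81 to 10.02, the share of equal genes was 71.5%. That range was set by these 9 members and leaves out INTS13, so it is no base for 9 of 10. Since most genes there were equal, the 9 equal members cannot be read as 9 measured absences of change. The smallest difference other than 0 over the genes past the limit was 0.00025, and the median size of such differences was 0.12. INTS13 lay at a stronger signal, where equal values were less common. Of the 697 genes whose mean lay within 0.5 of that of INTS13, 54.5% were equal, 27.4% were lower, and 1.72% were lower by more than 1.5-fold. In that window INTS13 had the eighth lowest difference. The shares over all genes that stand beside the lists below are not matched for signal unless stated.

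**Figure D2:**
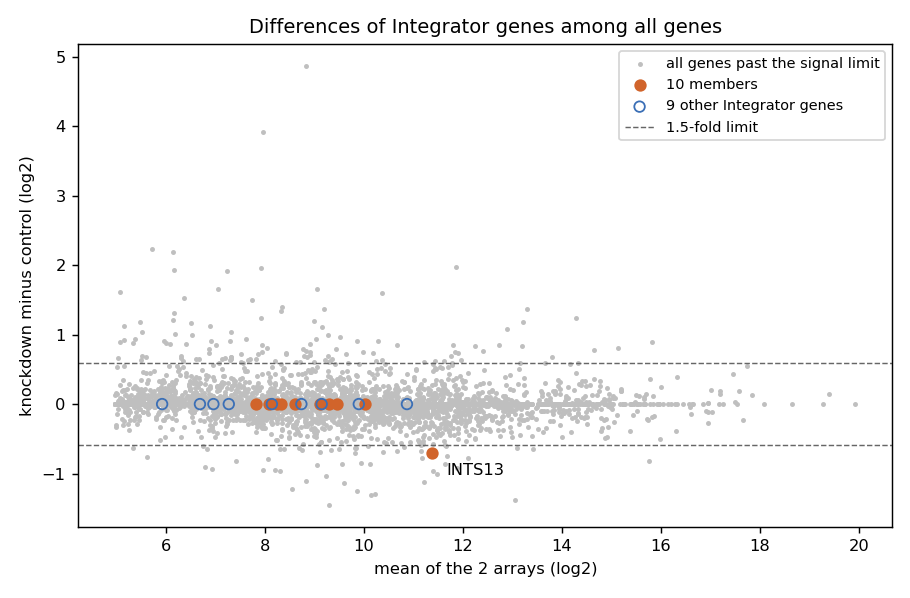
Log2 difference (knockdown minus control) against the mean of both arrays (log2) for the 11312 genes past the signal limit (grey), the members (filled) and 9 other Integrator genes (open circles). Dashed lines mark the 1.5-fold limit. INTS13 lies below the lower line at -0.71, and the other Integrator genes lie on the line of no difference.

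The arrays also hold 8 rows for bacterial and phage control RNAs that Affymetrix protocols add to a sample. Their differences ran from 0 to 0.26, with dap, lys and phe equal, cre at 0.027, bioD at 0.061, bioC at 0.20, thr at 0.24 and bioB at 0.26. Such rows carry technical variation only, so they do not show how far INTS13 would vary between cultures or clones of the same kind.

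The 9 equal members are given by module. The backbone subunits INTS2 and INTS7, large helical scaffold proteins, stood at 9.46 and 9.29 on both arrays. INTS8, which links the scaffold to the phosphatase, stood at 8.60. In the cleavage module, INTS4 stood at 10.02 and INTS9, a catalytically inactive relative of the endonuclease subunit, at 7.81. INTS6, which holds PP2A, stood at 8.08. INTS3, which is shared with a single-stranded DNA binding complex of DNA repair, stood at 9.10. INTS10, which lies in the arm with INTS13, stood at 8.23, and INTS12, a small subunit with a PHD finger, at 8.32. None of these 9 values lay in the range of the background probes.

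The other genes of the complex, with INTS6L and the INTS3-associated NABP1, NABP2 and INIP, were 9 of 9 past the signal limit and 9 of 9 equal, beside 76.1% equal over all genes. INTS14, the direct partner of INTS13 in the arm, stood at 9.89 on both arrays, and INTS15, a further arm subunit, at 6.68. INTS11, the endonuclease itself, stood at 7.27. INTS1, the largest scaffold subunit, stood at 8.14 and INTS5 at 5.92, a value within the range of the background probes. NABP1, NABP2 and INIP, which belong to the DNA binding complexes of INTS3 and are not core subunits, stood at 8.73, 9.14 and 10.87. INTS6L, a close relative of INTS6 with which it can share probes, stood at 6.95. The pseudogenes INTS4P1 and INTS4P2, close copies of parts of INTS4, stood at 9.10 and 10.24 on both arrays, so the row of INTS4 may in part measure them, and INTS6-AS1, the antisense RNA of INTS6, stood at 5.005. Of these 19 genes, 18 had equal values, a count to be read against the 76.1% of all genes that did.

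Of the 5 genes with a row on either side of INTS13 on chromosome 12, in RefSeq order, 7 of 10 were past the signal limit. Of these 7, 6 were equal and 1 was lower, which is near the 76.1% equal over all genes. FGFR1OP2, the next gene on the side of the INTS13 start and transcribed away from it, stood at 8.88 on both arrays. TM7SF3, a membrane protein gene, followed at 11.21, a signal of the strength at which 54.5% of genes were equal. MED21, a subunit of the Mediator complex, stood at 11.06 in control and 10.97 in knockdown cells, a difference of -0.088, and was the 1 unequal neighbour. STK38L, a kinase of the NDR family, stood at 9.73 and ITPR2, a calcium channel of the endoplasmic reticulum, at 9.09 on both arrays. BHLHE41, a circadian transcription factor, and RASSF8, of the Ras association family, stood at 6.47 and 6.28. SSPN, C12orf71 and the 5S ribosomal pseudogene RNA5SP354 lay below the signal limit, at 4.14, 4.14 and 4.03. None of the 10 neighbours was past the 1.5-fold limit.

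**Figure D3:**
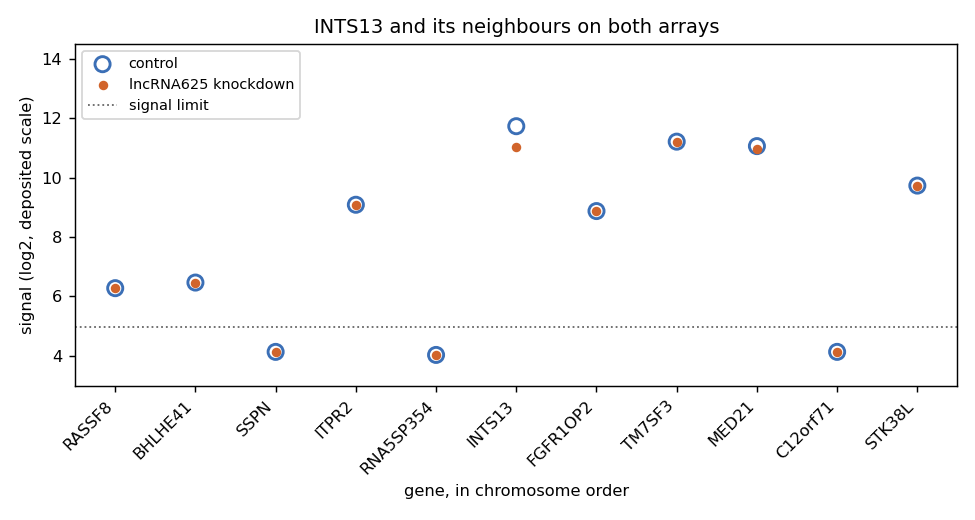
Signal (log2, deposited scale) of INTS13 and the 5 genes with an array row on either side of it, in chromosome order, on the control array (open circles) and the knockdown array (filled points). INTS13 is the gene with a visible gap, and MED21 differs by -0.088.

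The 250 bases before 3 gene starts are shown because they belong to the member that differed, to its upstream neighbour that was equal, and to its partner subunit that was equal. They were read from the RefSeq annotation of GRCh38.p14, 5' to 3' on the strand of the gene. Capitals mark the CCAAT box (letters CCAAT) and the GC box (letters GGGCGG), searched on both strands. INTS13 lies at chr12:26937982-26938231 on the minus strand, FGFR1OP2 at chr12:26938220-26938469 on the plus strand and INTS14 at chr15:65611132-65611381 on the minus strand.
INTS13: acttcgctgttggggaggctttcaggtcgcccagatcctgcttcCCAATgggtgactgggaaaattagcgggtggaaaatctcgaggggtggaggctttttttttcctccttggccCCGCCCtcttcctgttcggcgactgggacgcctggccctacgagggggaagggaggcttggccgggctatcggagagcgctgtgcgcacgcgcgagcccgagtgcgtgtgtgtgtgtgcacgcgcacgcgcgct
FGFR1OP2: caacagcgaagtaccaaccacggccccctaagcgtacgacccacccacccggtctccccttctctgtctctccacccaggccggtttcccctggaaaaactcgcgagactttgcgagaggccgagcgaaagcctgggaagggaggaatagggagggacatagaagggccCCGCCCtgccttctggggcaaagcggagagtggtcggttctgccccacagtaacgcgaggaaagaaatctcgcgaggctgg
INTS14: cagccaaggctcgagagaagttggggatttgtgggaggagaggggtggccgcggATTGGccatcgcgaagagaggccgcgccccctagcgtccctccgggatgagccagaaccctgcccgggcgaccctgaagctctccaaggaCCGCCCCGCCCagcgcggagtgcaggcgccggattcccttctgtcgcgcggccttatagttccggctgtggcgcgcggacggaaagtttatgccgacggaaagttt

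The annotated starts of INTS13 and FGFR1OP2 lie 489 bases apart and point away from each other, so their windows share 12 bases. The 3 windows were rich in G and C, with 63.6%, 62.0% and 66.4%. INTS13 and INTS14 each held 1 CCAAT box, and FGFR1OP2 held none in this window. The GC box was found at 1 place in INTS13, at 1 in FGFR1OP2 and at 2 overlapping places in INTS14. Of the members, 7 had a window in the table used, INTS2, INTS3, INTS4, INTS6, INTS7, INTS12 and INTS13. A CCAAT box lay in 4 of the 7 (INTS2, INTS3, INTS7 and INTS13), against 32.0% of all 35116 windows of that length. A GC box lay in 5 (INTS2, INTS3, INTS6, INTS12 and INTS13), against 42.6%. The ETS core CCGGAAG lay in INTS3 and INTS4, against 8.52%, and the cAMP response element TGACGTCA in INTS7, against 1.65%. The TATA box TATAAA lay in 0 of 7, against 10.7%. Each member gave 1 window, while these shares count every window, with no matching by kind of gene. Of the letters searched, INTS13 held none that was not also found in an equal member.

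Subunits of PP2A, the phosphatase that Integrator recruits, included a further gene lower by more than 1.5-fold. PPP2R1B, the beta form of the scaffold subunit, stood at 10.12 in control and 9.50 in knockdown cells. Its log2 difference of -0.63 lies just past the limit. PPP2CA, the alpha catalytic subunit, stood at 9.82 and 9.63, a difference of -0.19. PPP2R1A, the alpha scaffold, and PPP2CB, the beta catalytic subunit, were equal at 10.00 and 8.98. The median of the 4 genes was -0.096, beside 0 over all genes, and 1 of 4 genes lower by more than 1.5-fold stands beside 0.477% of all genes. That count rests on PPP2R1B alone, and the list holds scaffold and catalytic subunits only.

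Genes that act around Integrator in RNA polymerase II pausing and at snRNA promoters were equal about as often as all genes past the limit (76.1%), with a median of 0 in both lists and no gene past the 1.5-fold limit. Of 7 genes of RNA polymerase II pausing, 5 were equal, HEXIM1, an inhibitor of the elongation kinase, was higher by 0.13, and CCNT1, the cyclin of that kinase, differed by -0.0045. NELFA, NELFB, NELFCD, NELFE and CDK9 lay in rows with several symbols, from which no value was taken. Of 11 snRNA promoter factors, 8 were equal. SNAPC1 and SNAPC3, subunits of the snRNA activating complex, differed by -0.13 and 0.083, and ZNF143, a zinc finger factor of snRNA promoters, by -0.057. POU2F1 had no row of its own.

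The factors that carry snRNAs from capping to assembly into ribonucleoproteins held 5 lower, 13 equal and 0 higher genes of 18, against 12.1% lower over all genes. The share of lower genes varied with signal, so 12.1% is not a matched base. It was 27.4% in the window around INTS13, where the means of NCBP1 and PHAX lay. In the range 7.81 to 10.02, where those of GEMIN4 and GEMIN5 lay, 480 of 3149 genes were lower. GEMIN5, which recognises snRNAs for the SMN complex, stood at 9.81 in control and 9.27 in knockdown cells, a difference of -0.54. STRAP, a further protein of that complex, stood at 13.37 and 12.92, a difference of -0.45. NCBP1, the large subunit of the nuclear cap-binding complex, stood at 11.49 and 11.23, a difference of -0.26. GEMIN4 differed by -0.24, and PHAX, the snRNA export adaptor, by -0.16. None of the 5 reached the 1.5-fold limit, and the median of the list was 0.

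The cleavage and polyadenylation factors of mRNA, which include relatives of INTS9 and INTS11, held 3 higher, 12 equal and 2 lower genes of 17, beside 11.8%, 76.1% and 12.1% over all genes. CPSF2 and CPSF3, the relatives of those subunits, were equal at 10.68 and 12.001. CSTF2T was higher by 0.22 and RBBP6 by 0.11, both of them parts of the cleavage machinery. PAPOLA, the poly(A) polymerase, differed by -0.14 and NUDT21, a subunit of cleavage factor I, by 0.075. CPSF1 and WDR33 lay in rows with several symbols. Of 7 factors of histone mRNA 3' ends, 6 were equal and LSM11, a U7 snRNP protein, differed by -0.015. The median of both lists was 0.

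Dynein and dynactin genes, listed because INTS13 helps to bring dynein to the nucleus, held 2 higher, 11 equal and 5 lower genes of the 18 past the signal limit, beside 11.8%, 76.1% and 12.1% over all genes. DYNC1LI2, a light intermediate chain, was the 1 gene lower by more than 1.5-fold, with 10.73 in control cells, 10.05 in knockdown cells and a difference of -0.69, beside 0.477% of all genes. Its relative DYNC1LI1 differed by -0.20. DYNLRB1, a light chain, was higher by 0.19, and DYNLL2, another light chain, differed by -0.085. DYNLT3 lay below the signal limit, at 4.03 on both arrays, NDE1 lay in a row with several symbols and ACTR1A had no row of its own. The factors named with INTS13 at enhancers and promoters were nearly equal, with EGR1, an immediate early transcription factor, higher by 0.047 and NAB1, NAB2 and ZNF655 equal. EGR2 had no row of its own. The medians of the dynein list and of these factors were 0.

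The snRNAs, the best known products of Integrator, were equal in most rows, and most of the unequal rows were higher. Pseudogene copies made up most of the equal and most of the unequal rows. The U1 rows were copies or variant genes, and the U2 and U7 rows were all copies. The standard U1, U2 and U7 genes were thus not read from rows of their own. Of 134 genes and copies of the snRNA classes made by RNA polymerase II, 63 were past the signal limit, and of these 17 were higher, 43 equal and 3 lower, beside 11.8% higher and 12.1% lower over all genes. RNU2-3P, a copy of the U2 gene, was the 1 row past the 1.5-fold limit, at 6.77 and 7.36. Its difference of 0.59 lies just above the limit, and 1 of 63 rows stands beside 1.11% of all genes higher by that factor. RNU2-4P and RNU2-6P differed by 0.39 and 0.35. RNU5A-1, a U5 gene, stood at 13.76 in control and 14.10 in knockdown cells, a difference of 0.34. Of the 63, 51 have pseudogene symbols, with 13 higher, 36 equal and 2 lower. Of the other 12, 4 were higher, 7 equal and 1 lower. The 4 were the U5 genes RNU5A-1 and RNU5B-1 and the variant U1 genes RNVU1-1 and RNVU1-2, with 0.34, 0.31, 0.33 and 0.31. RNU4-1, RNU4-2, RNU11, RNU12, RNU5D-1, RNU5E-1 and RNU5F-1 were equal, and RNU4ATAC differed by -0.0044. The 2 lower copies were RNU7-10P, at 5.13 and 4.82 and so near the signal limit, with -0.30, and RNU7-53P with -0.062. Copies can share probes, and RNVU1-2 has the same values as RNU1-12P. The 5 unequal control RNA rows were higher on the knockdown array too, by 0.027 to 0.26, and their part in these differences was not tested. Arrays of this kind do not tell a mature snRNA from its uncut precursor unless probes lie beyond the 3' end, and the positions of the probes were not used here.

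The U6 and U6atac genes are made by RNA polymerase III. Of 78 such genes and copies, 54 were past the signal limit, and of these 14 were higher, 40 equal and 0 lower, beside 11.8% higher and 12.1% lower over all genes. The 54 rows held 47 distinct pairs of values, 11 of them higher, and 6 of the 14 higher rows, RNU6-1 among them, shared a difference of 0.0022. Among those past the limit, RNU6-14P differed by 0.14 and RNU6-59P by 0.090. RNU6-74P and RNU6-78P differed by 0.17 and -0.16, but both lay below the signal limit. The median was 0 for both snRNA lists. Whether the 2 classes differed from each other was not tested.

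**Figure D4:**
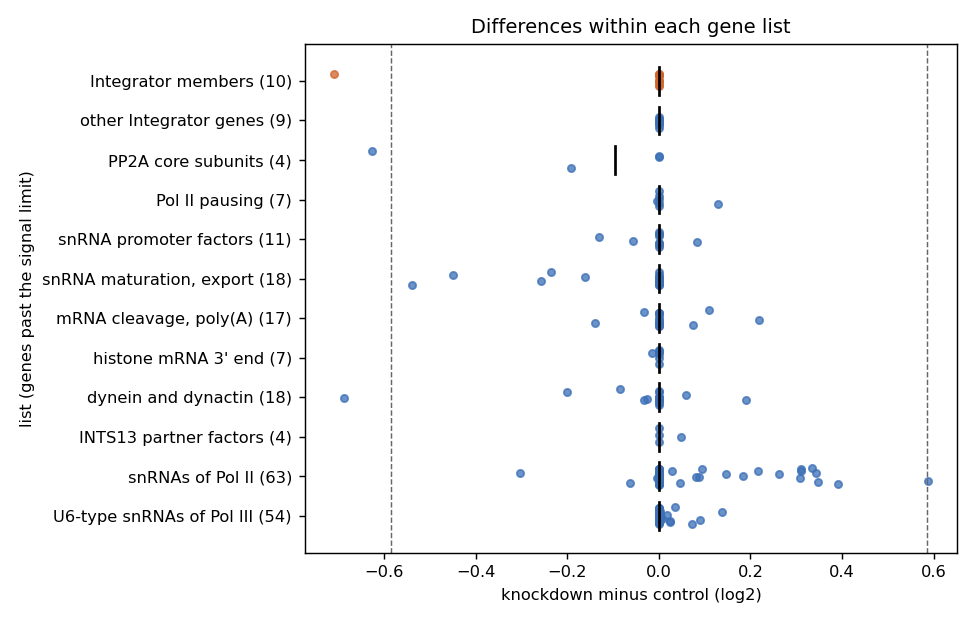
Log2 differences (knockdown minus control) of the genes past the signal limit in each list, 1 point per gene, with the number of genes in brackets and a black bar at the median. Dashed lines mark the 1.5-fold limit. INTS13, PPP2R1B and DYNC1LI2 lie below the lower line, and the unequal snRNAs lie mostly to the right of 0. Most snRNA rows, equal or unequal, are pseudogene copies.

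The genes whose pair of control value and difference lay nearest to that of INTS13 were SNORD93, NOLC1, SENP1, EIF2S1 and PPID, with distances of 0.14 to 0.24 on the log2 scale. With 2 arrays, such likeness rests on 2 numbers per gene. SNORD93, a small nucleolar RNA, stood at 11.68 in control and 11.11 in knockdown cells. NOLC1, a nucleolar chaperone, stood at 11.56 and 10.79. SENP1, a SUMO protease, stood at 11.93 and 11.34, EIF2S1, the alpha subunit of a translation initiation factor, at 11.89 and 11.35, and PPID, a cyclophilin, at 11.69 and 11.21. None of these 5 is an Integrator gene.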

How the data were processed

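Biotin-labelled cDNA from total RNA of each KYSE150 line was read on 1 Human Transcriptome Array 2.0. A stable hairpin is given by the series title and the study's methods, while 1 sample label speaks of siRNA. The deposited log2 values were computed by the authors with RMA (background correction, quantile normalization and probe summary), whose version is not stated. They reach 19.93, and 76.1% of genes past the signal limit have values on both arrays that are equal to 5 decimals. The sources used here do not give the step behind either feature, so folds hold on that scale only. Of 70523 rows, 23781 had exactly 1 gene symbol and 1543 several, and no gene was named from the latter. Symbols were updated to RefSeq (GRCh38.p14) by gene ID in 21497 rows and by a synonym of a single gene in 306. Where a gene had several rows, the one with the highest mean of both arrays was used. Genes with a mean at or above 4.97 were kept. Differences are knockdown minus control, with 1.5-fold as the limit and 2-fold as an alternative, since the source text uses one in its results and the other in its methods. No test was made, since each group had 1 array.

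The members and lists were chosen with earlier results of these data known. Named are all 19 Integrator genes, up to 4 genes of each further list by size of difference (PHAX, RNU5B-1, the RNVU1 genes, RNU4ATAC and RNU6-1 were added after their values were seen), the neighbours of INTS13 and the 5 genes nearest to it, and the text names some further equal genes for context. The alternatives tried were centring on array medians, quantile normalization applied again, subtraction of a loess trend (span 0.3), averaging all rows per gene, dropping the filter, and a stricter filter at the 75th percentile. The steps were tested on simulated data. Computation used Python 3.11.15 with pandas 2.3.3, NumPy 2.4.6 and, for the loess trend, statsmodels 0.14.6. Plots were drawn with matplotlib 3.10.9.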

Additional observations from a re-analysis of the deposited data

How the results depend on the processing

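The difference of INTS13 was -0.72 with median centring and -0.68 with a second quantile normalization, past the 1.5-fold limit in both. The other 4 alternatives could not or did not move it: each member has 1 row and passes both filters, and the loess trend was 0. At the 2-fold limit 0 members were lower, where the share of all genes can be at most the 0.477% past 1.5-fold. With median centring 10 members were lower at all, since that step moves every gene by -0.011, beside 10057 of 11312 genes. With a second quantile normalization 9 members were lower, beside 8429 of 11312 genes, so both counts go with the shift of all genes. Under these settings the other 9 members lay between -0.027 and 0.018, and at 0 otherwise. No paired analysis was possible because each group holds 1 array. With 1 array per group, array and group cannot be told apart.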
